A study of Rattus norvegicus and Mus musculus with 22 samples.

Results

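Cholesterol and fatty acid synthesis genes were followed as a set of 32 genes chosen by name from these pathways, out of 29047 distinct gene symbols in the 6 deposited tables. They comprised 18 enzymes of sterol synthesis, 6 enzymes of fatty acid synthesis, the acetoacetate-activating enzyme Aacs, 5 genes that control sterol-responsive transcription and 2 cholesterol carriers. Symbols were matched without regard to case. All 32 were found in the islet and hepatocyte tables, 31 in the table of INS-1 replicates, 31 in the CRTC2 knockout table, and 29 in both the INS-1 inhibitor and the AR42J tables.

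Both pathways start from cytosolic acetyl-CoA, much of which is released from citrate by ATP citrate lyase (Acly). The sterol arm condenses it through Hmgcs1 and the mevalonate kinases to isoprenoids, squalene, lanosterol and finally cholesterol, while the fatty acid arm carboxylates it (Acaca, Acacb) and builds palmitate on Fasn. Transcription of both arms is set by the membrane-bound factors Srebf1 and Srebf2, which the escort protein Scap carries to the Golgi when sterols are low and which Insig1 and Insig2 hold back in the endoplasmic reticulum when sterols are high. Cyclic AMP signalling acts on many genes through CREB and its coactivators, and Star, which moves cholesterol into mitochondria, is a classical cyclic AMP-responsive gene of steroid-producing cells.

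The study used forskolin, an activator of adenylyl cyclase that raises cyclic AMP, at 10 µM for 2 h. Cultured primary islets and cultured primary hepatocytes of wild-type black6 mice, together with the rat insulinoma line INS-1, gave 2 libraries per condition, control and forskolin. Single libraries came from control and forskolin-treated islets of whole-body CRTC2 knockout mice (CRTC2 is a CREB coactivator), and from INS-1 cells left as control, given forskolin, given forskolin with JQ1 at 1 µM for 4 h (a BET bromodomain inhibitor), or given forskolin with A-485 at 10 µM for 4 h (an inhibitor of the CBP family of acetyltransferases). Single libraries also came from the rat pancreatic line AR42J carrying GFP or NeuroD1, each with and without forskolin. How AR42J cells were made to carry GFP or NeuroD1, how many animals gave islets or hepatocytes, and which part of Crtc2 was deleted are not given in the sources used here. Whether replicate libraries are from different mice or dishes is likewise not stated, and the p-values therefore describe variation among libraries that could be purely technical.

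Libraries were shallow. File headers give totals of 1.95 M to 6.2 M reads for 11 of the 12 replicated libraries, and 1 INS-1 control has no total. In the unreplicated tables, the value of 1 read put the depth near 0.616 M reads for knockout islets with forskolin and between 2.14 M and 5.82 M reads for the other 11 libraries. The first islet forskolin library carried more RNA of hepatocyte genes: the summed level of 10 hepatocyte markers was 12.76 on the log2 scale there, against 9.2 to 9.86 in the other 3 islet libraries, with Alb at 11.97 against 7.86 to 8.77. In the hepatocyte table the column names of replicate 2 run opposite to the order of libraries and groups in the command stored in its header, which also gives 1 h of forskolin for that library. The wild-type columns of the knockout table lay close to the second islet replicates (robust SD of the log2 difference over 1291 genes 0.172 for control and 0.165 for forskolin, against 0.335 and 0.635 for the first replicate of the same group), so they are not treated as independent of them.

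Promoters show what sequence some members share. RefSeq windows on the rat assembly GRCr8, from 250 bases before to 50 bases after the annotated start, were at hand for 23 of the 32 members. They are printed for Insig1 and Cyp51, which with Stard4 (no window at hand) are the members called higher with forskolin in both islets and INS-1 cells in the authors' deposited table. Acly, called in neither, is printed as the most abundant member in islets, INS-1 cells and AR42J cells. Capitals mark the core of the CREB element (TGACG on either strand), the E-box (CACGTG) and the NF-Y box (CCAAT on either strand). The windows lie at chr4:8057720-8058019 (minus strand) for Insig1, at chr4:30991443-30991742 (plus strand) for Cyp51 and at chr10:85963582-85963881 (minus strand) for Acly.
Insig1: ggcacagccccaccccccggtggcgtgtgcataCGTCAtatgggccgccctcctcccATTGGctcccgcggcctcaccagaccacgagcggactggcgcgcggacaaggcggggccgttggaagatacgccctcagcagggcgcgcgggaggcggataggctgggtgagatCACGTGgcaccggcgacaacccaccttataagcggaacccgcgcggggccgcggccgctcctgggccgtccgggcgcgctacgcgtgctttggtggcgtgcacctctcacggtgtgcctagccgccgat
Cyp51: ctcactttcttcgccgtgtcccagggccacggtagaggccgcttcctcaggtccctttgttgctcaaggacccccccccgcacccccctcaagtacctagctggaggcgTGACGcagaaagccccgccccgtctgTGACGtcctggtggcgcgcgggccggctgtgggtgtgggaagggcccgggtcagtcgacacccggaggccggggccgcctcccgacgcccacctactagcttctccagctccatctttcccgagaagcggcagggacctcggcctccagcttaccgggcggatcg
Acly: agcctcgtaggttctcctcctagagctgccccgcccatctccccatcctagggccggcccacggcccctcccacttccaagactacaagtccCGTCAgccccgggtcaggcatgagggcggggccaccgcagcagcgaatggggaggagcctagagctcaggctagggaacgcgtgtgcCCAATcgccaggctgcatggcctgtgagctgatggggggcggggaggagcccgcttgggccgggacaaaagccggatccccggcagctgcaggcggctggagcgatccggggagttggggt
The Insig1 window holds 1 such core, 1 E-box and 1 NF-Y box, the Cyp51 window holds 2 cores, which begin at positions -141 and -115 from the start, and the Acly window holds 1 core and 1 NF-Y box. Across all 23 members, 11 held the core, against 21.2% of 33469 rat promoter windows, 3 held the E-box, against 6.42%, and 18 held the NF-Y box, against 37.5%. None held the full CREB element TGACGTCA (1.83% of all windows), the sterol regulatory element TCACCCCAC (0.484%) or its form TCACNCCAC with a free base (1.12%). A member was counted if any of its windows held the letters, while the shares are over windows, so they are not in like units. These are matches of letters in a short window of the rat genome, and no mouse promoter was read.

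Levels per transcript length differed between the cell types and between members. Read values scaled for transcript length and library depth (FPKM) put Acly first among members in the control library of all 3 unreplicated tables, at 796 FPKM in wild-type islets, 1127 in INS-1 cells and 380 in AR42J cells with GFP. Behind it in islets came Hmgcs1 (57.2), Srebf1 (55.7), Sqle (51.8) and Aacs (46.4), whose neighbours in this order differ by little and cannot be ranked with 1 library. In INS-1 cells Aacs (152), Fasn (106), Fdps (89.8) and Srebf2 (76.3) followed, and in AR42J cells Dhcr7 (89.6), Cyp51 (70.7) and Srebf2 (58.2). Star stood at 3.75 FPKM in control islets, 0.939 in INS-1 cells and 0 in AR42J cells. The elongase Elovl6 was at or under 0.268 FPKM in all 8 INS-1 and AR42J libraries of these tables, and the carboxylase Acacb was at or under 1.93 FPKM there.

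In wild-type islets 4 of 18 sterol enzymes, both cholesterol carriers and Insig1 rose after forskolin, while no enzyme of the fatty acid arm passed the test with all 4 libraries. Of 31 members tested, 7 rose and 0 fell at adjusted p under 0.05 (limma on the deposited regularised log2 values, Benjamini-Hochberg over 13656 genes), beside 1.72% of all genes called higher and 0.242% called lower. The 7 were Star, Pmvk, Cyp51, Idi1, Insig1, Stard4 and Hsd17b7. In the authors' deposited table, which tests read counts, 12 members were higher and 0 lower, beside 2.83% and 0.369% of all genes: these 7 and Hmgcs1, Sqle, Mvk, Msmo1 and Sc5d. All 31 tested members also passed the expression filter in the control libraries. The number called depended on the libraries used. With 1 library left out, the median log2 difference of the sterol arm ran from 0.60 (without forskolin 2) to 0.86 (without control 2). The median of the fatty acid arm was 0.30 without control 2 and -0.19 without forskolin 2.

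The carrier Star (chr8:25808474-25815982 in mm10, plus strand) showed the largest difference of the set. Its log2 level was 5.76 and 5.88 in the control libraries and 9.32 and 9.73 with forskolin. Both treated libraries lay far above both controls, with means of 5.82 ± 0.089 and 9.53 ± 0.30 (SD, n = 2). The log2 difference was 3.71 ± 0.24 (SE), 13.0-fold on this scale, with a limma adjusted p of 0.0019. The authors' deposited table gives a log2 fold change of 5.19 for Star. The second carrier, Stard4, a soluble protein that moves sterol between membranes, stood at 6.38 and 6.42 in control and 7.65 and 7.45 with forskolin. It rose by 1.15 ± 0.21 (limma adjusted p = 0.0389), and its groups did not overlap. Star is best known from steroid-producing cells, and of 6 steroidogenic markers 3 (Hsd3b1, Nr5a1 and Cyp11b1) were listed at 0 in every islet library, and the summed level of the list was 1.88 to 2.00. In whole-islet RNA, more cells of a type and more RNA per cell cannot be told apart.

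The 4 sterol enzymes that rose were Pmvk, Idi1, Cyp51 and Hsd17b7. Pmvk, phosphomevalonate kinase (chr3:89459118-89469009, plus strand), stood at 6.94 and 6.61 in control and 9.07 and 9.94 with forskolin. It rose by 2.74 ± 0.32 (limma adjusted p = 0.0078), from means of 6.77 ± 0.23 to 9.51 ± 0.61 (SD, n = 2). The groups were well apart, and the second treated library was the higher. Idi1, which isomerises isopentenyl diphosphate, gave nearly the same levels within each group, 4.5 and 4.48 in control and 5.73 and 5.79 with forskolin. Its rise was 1.27 ± 0.17 (limma adjusted p = 0.0116). Cyp51, the lanosterol demethylase, stood at 7.78 and 7.89 in control and 9.54 and 9.74 with forskolin, with no overlap. It rose by 1.80 ± 0.23, or 3.49-fold on this scale, with a limma adjusted p of 0.0104. Hsd17b7, a sterol ketone reductase, rose by 1.13 ± 0.21 (limma adjusted p = 0.0432) and was the called member nearest the threshold.

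Just outside the threshold stood 5 sterol enzymes that the authors' deposited table calls higher. The methylsterol oxidase Msmo1 differed by 1.23 ± 0.25 (limma adjusted p = 0.0554) and the squalene epoxidase Sqle by 1.17 ± 0.24 (0.0555). The synthase Hmgcs1 differed by 1.28 ± 0.27 (0.0663), mevalonate kinase Mvk by 1.47 ± 0.33 (0.0802) and the desaturase Sc5d by 1.06 ± 0.24 (0.0857), in the same fit. In each of these 5 both treated libraries lay above both controls, and in the authors' deposited table their log2 fold changes ran from 1.53 to 2.28. Sqle, for one, stood at 8.27 and 8.39 in control and 9.39 and 9.61 with forskolin.

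The other 9 sterol enzymes were not called in either table. Fdps, Fdft1, Acat2, Tm7sf2, Nsdhl and Ebp, which make farnesyl diphosphate, squalene and acetoacetyl-CoA or modify the sterol ring, differed by -0.13 to 0.30, and lanosterol synthase Lss by 0.45 ± 0.25. Of these, Lss and Ebp (0.30) had both treated libraries above both controls. The decarboxylase Mvd (-0.39 ± 0.22) and the sterol reductase Dhcr7 (-0.51 ± 0.20) were lower in both treated libraries than in both controls without passing the test. The median of the 18 sterol enzymes was 0.76 log2 units above control, against 0.01 for all genes tested, and it was 0.64 in the first pair of libraries and 0.66 in the second. Over the 31 tested members, 15 lay above both controls in both treated libraries and 5 below, beside 23.0% and 23.2% of all genes tested.

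The fatty acid arm gave a median of 0.12, and 0 of its 5 tested enzymes were called. Acly stood at 12.74 and 12.83 in control and 12.59 and 13.18 with forskolin, so that the treated libraries lay on both sides of the controls. Fasn did the same more widely, at 9.59 and 9.56 in control and 9.26 and 10.56 with forskolin. Its difference was 0.33 ± 0.40 (SE), with a limma adjusted p of 0.745. Without forskolin 1 the difference of Fasn was 0.98, and without forskolin 2 it was -0.31, so the second treated library decides its value. The desaturase Scd1 differed by 0.33 ± 0.22, Elovl6 by 0.12 ± 0.21 and the carboxylase Acaca by -0.14 ± 0.18. Under quantile normalisation the median of the fatty acid arm was -0.04 and that of the sterol arm 0.55.

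Of the genes that control the pathway, Insig1 was the called one. It stood at 8.41 and 8.73 in control and 9.91 and 10.13 with forskolin. The rise of 1.45 ± 0.25 had a limma adjusted p of 0.0342, and the groups did not overlap. The factors themselves split between the treated libraries. Srebf1 stood at 9.15 and 8.97 in control and at 8.08 and 9.23 with forskolin, and Srebf2 at 8.27 and 8.43 in control and at 8.12 and 9.07 with forskolin. The low value of each was in the first treated library, the one with more hepatocyte RNA, and the part of that RNA in these values was not tested. Insig2, which is abundant in hepatocytes (mean log2 level 8.91 there), was 6.42 in that library and 5.29 in the second, against 5.37 and 5.71 in control.

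**Figure D1:**
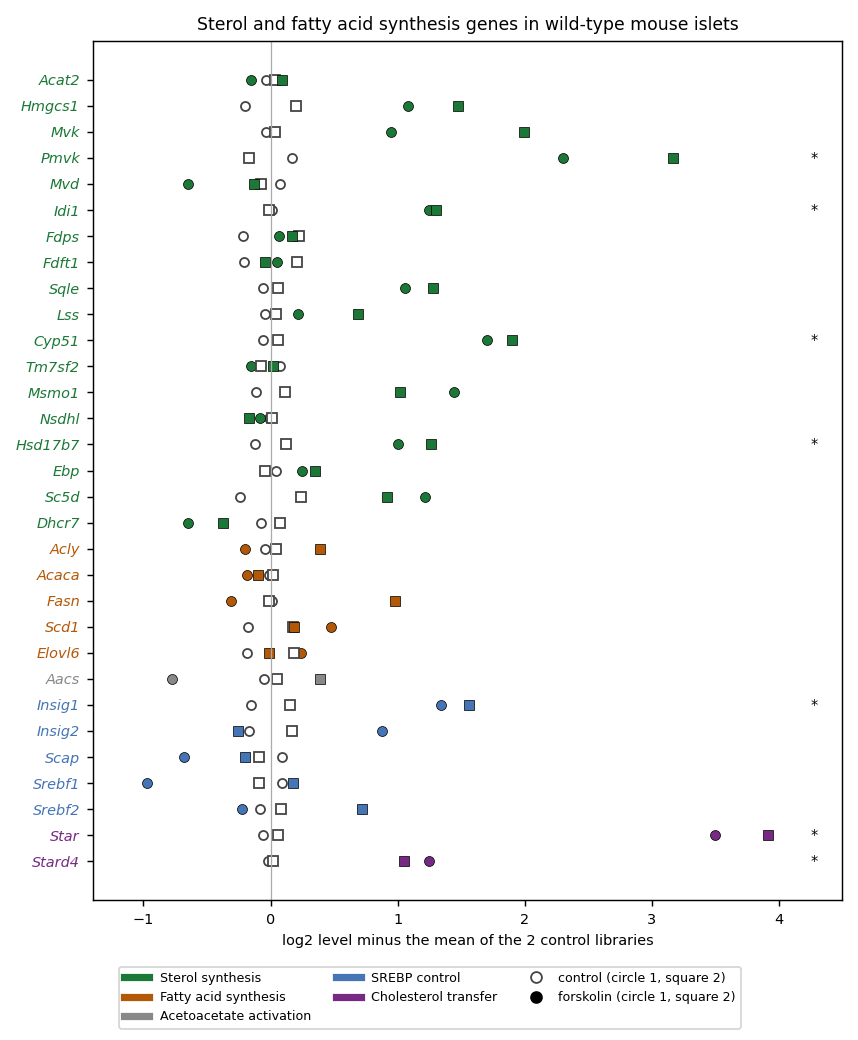
Log2 level of each tested member in the 4 wild-type islet libraries, as the difference from the mean of its 2 controls (x axis, log2 units); open points are control, filled points forskolin, circles replicate 1 and squares replicate 2, and an asterisk marks a limma adjusted p under 0.05. Star and Pmvk stand farthest to the right, both treated points of Idi1 nearly coincide, and Fasn, Acly, Aacs, Srebf1 and Srebf2 have treated points on both sides of 0.

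In INS-1 cells the response was narrower. Of 28 members tested, 2 rose (Stard4 and Insig1) and 0 fell, beside 3.07% of 10344 genes called higher and 1.24% called lower. All tested members also passed the filter in control. The authors' deposited table calls the same pair and Cyp51 higher and 0 lower, 3 members beside 2.7% higher and 0.902% lower genes. Stard4 stood at 7.45 and 7.71 in control and 8.97 and 8.65 with forskolin. It rose by 1.23 ± 0.16 (limma adjusted p = 0.0012) and remained called without each library in turn. Insig1 stood at 7.77 and 8.30 in control and 9.12 and 9.14 with forskolin. Its rise of 1.1 ± 0.18 (limma adjusted p = 0.0042) also held without each library.

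Cyp51 was the next member in INS-1 cells, at 8.77 and 8.90 in control and 9.46 and 9.31 with forskolin. The difference of 0.55 ± 0.14 missed the threshold (limma adjusted p = 0.0575), and the authors' deposited table gives a log2 fold change of 0.79. Msmo1 (0.40 ± 0.16) and Idi1 (0.34 ± 0.15) were also above both controls without passing. The mevalonate enzymes showed much smaller differences than in islets: Pmvk 0.12 ± 0.12, Mvk 0.20 ± 0.13 and Hmgcs1 0.05 ± 0.13. Sqle was below both controls, at 7.52 and 7.55 against 7.68 and 7.69 (difference -0.15 ± 0.13, limma adjusted p = 0.590), where in islets it was above both. The tables were normalised separately, so differences between cell types are set side by side and were not tested.

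The acetoacetate enzyme Aacs, singled out after its values were seen, was the lowest member in INS-1 cells. It stood at 9.74 and 9.49 in control and 8.95 and 9.27 with forskolin, a difference of -0.50 ± 0.16 with a limma adjusted p of 0.122. Medians were 0.04 for the 18 sterol enzymes, 0.05 for the 3 tested enzymes of the fatty acid arm and 0.0035 for all genes. Acly (0.08 ± 0.17) and Fasn (0.05 ± 0.15) differed by less than their SE, and both were below 0 under quantile normalisation, at -0.26 and -0.22. Srebf1 differed by 0.03 ± 0.18 and Srebf2 by 0.27 ± 0.15. Star was not detected above the filter: its regularised log2 level was -0.66 to -0.62 in all 4 libraries.

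Without a replicate block, hepatocytes showed no called member. With the columns as named, limma called 0 members and 0 of 12593 genes (0% higher and 0% lower), while 32 genes had an unadjusted p under 0.05. The authors' deposited table calls 0 members, beside 0.323% of genes higher and 0.0452% lower. Column names matter here: Pck1, the gluconeogenic enzyme that cyclic AMP induces in liver, stood at 7.71 and 10.17 in the columns named control and 10.08 and 7.62 in those named forskolin, while the authors' deposited table gives it a log2 fold change of 4.16. With the replicate 2 columns exchanged, as the header's command orders them, limma called 0.0238% of genes higher and 0% lower, and again 0 members. In that order each group as named mixes a control with a treated library, so the fit as named could not test forskolin.

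Read in that exchanged order, 2 members stood out in hepatocytes, both singled out after their values were seen. Elovl6, which elongates palmitate, stood at 7.29 and 7.17 in control and 8.09 and 7.44 with forskolin. Its difference was 0.54 ± 0.21, and the authors' deposited table gives 0.69 with an adjusted p of 0.311. Stard4 stood at 6.93 and 6.94 in control and 7.25 and 7.12 with forskolin, a difference of 0.25 ± 0.085. Both had a limma adjusted p of 1.00 in this reading, with the treated libraries above both controls. With replicate as a block in this reading, both were called (limma adjusted p = 1.4e-14 for Elovl6 and 0.00098 for Stard4). The folder names in the header show this grouping, and the labels do not state it. That fit called 395 of all genes higher and 227 lower. The other members lay between -0.16 and 0.10, with Insig1 at -0.16 ± 0.086 and Sqle at 0.00 ± 0.11, and the median of the sterol arm was -0.03 and of the fatty acid arm 0.04. Star was low in hepatocytes, at 2.66 to 2.80 on the log2 scale.

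**Figure D2:**
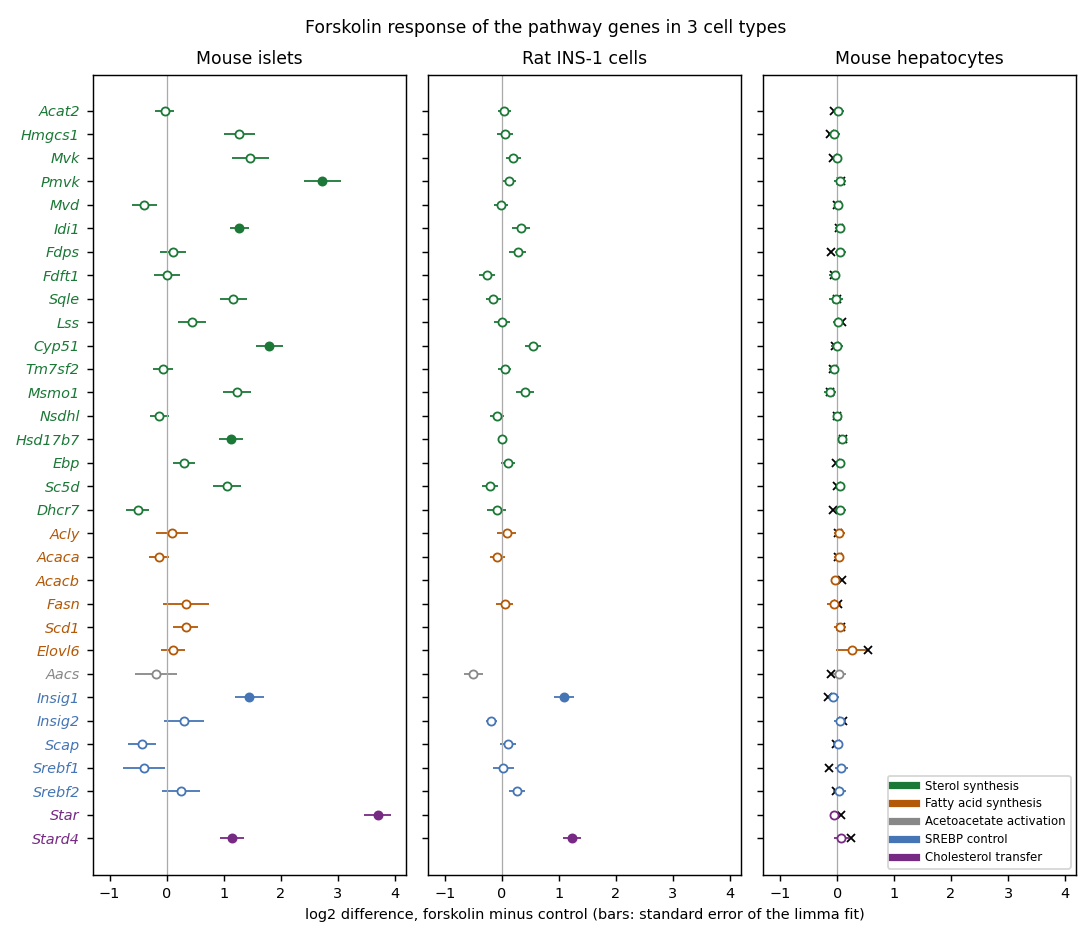
Log2 difference between forskolin and control for each member in islets, INS-1 cells and hepatocytes (x axis, log2 units), with the standard error of the limma fit as bars (n = 2 per group) and filled points for an adjusted p under 0.05. Crosses in the hepatocyte panel give the difference with the replicate 2 columns exchanged, an order in which the groups as named mix control and treated libraries. The high points in islets extend to 3.71 for Star, INS-1 cells have filled points at Stard4 and Insig1, and hepatocyte points stay between -0.16 and 0.54 in both readings.

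Loss of CRTC2 was examined with 1 library per group, so the values below have no replicate check and no test. A gene was counted as higher or lower when its ratio of FPKM with a pseudocount of 1 reached 1.5-fold, among genes with at least 5 FPKM in the higher library. Crtc2 itself stood at 18.7 FPKM in wild-type and 7.77 in knockout control islets, and at 13.9 and 9.58 with forskolin; reads outside a deleted part would remain. In wild-type islets forskolin took 15 of 27 members higher and 2 lower, beside 21.2% and 16% of genes, and in knockout islets 18 of 27 higher and 1 lower, beside 25% and 18%. Star, Idi1 and Hsd17b7 passed the FPKM minimum only through their treated libraries, as did Stard4 in wild type and Scd1 in the knockout (4.197 FPKM in control and 7.01 with forskolin), so their place in these counts is not support. Among the 23 members above the minimum in both libraries, 11 were higher in wild-type islets and 14 in knockout islets. The share of all genes counted higher under that rule was not computed, so these counts have no share beside them. Sterol arm medians over the 16 enzymes past the filter were 1.05 in wild-type and 1.46 in knockout islets, against 0.04 and 0.09 for all genes. They were 0.87 and 1.17 over the 14 enzymes above the minimum in both libraries, without Idi1 and Hsd17b7. Both responses were computed from libraries that also enter the knockout comparisons below.

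Of 16 sterol enzymes past the filter, 2 were higher and 2 lower in knockout than in wild-type islets with forskolin. This stood beside 17.6% of all genes higher and 19.4% lower. The other 12 enzymes differed by less than 1.5-fold, as did most genes. Cyp51 stood at 19.96 FPKM in wild-type control, 20.7 in knockout control, 114 in wild-type forskolin and 117 in knockout forskolin. Insig1 stood at 46.3, 48.6, 185 and 176 in the same order, Sqle at 51.8, 52.5, 157 and 163, and Hmgcs1 at 57.2, 55.3, 191 and 206. In these 4 genes the genotypes differed by less than 1.5-fold with or without forskolin. The largest difference in response was that of Fdps, -0.35 log2 units in wild type and 1.76 in the knockout, on about 21.4 and 22.6 treated reads. Nsdhl (-0.57 and 0.38) and Insig2 (-0.77 and 0.11) also had the higher response in the knockout. These rested on about 31.3 and 13.6 treated reads for Nsdhl and 31.7 and 26.1 for Insig2. Mvk, Star and Pmvk had the lower response in the knockout. Mvk stood at 9.70, 8.73, 86.4 and 27.7 FPKM, a forskolin response of 3.03 log2 units in wild type and 1.56 in the knockout, on about 337 and 29.3 treated reads. Star stood at 3.75, 3.43, 150 and 83.4 FPKM, a response of 4.99 against 4.252, and Pmvk at 27.5, 26.7, 625 and 412 FPKM, a response of 4.46 against 3.90.

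With forskolin, knockout islets had 3 members higher and 4 lower than wild-type islets, beside 17.6% and 19.4% of genes. Without forskolin they had 0 higher and 2 lower, beside 10.2% in each direction. The 3 higher were Fdps (6.51 against 25.3 FPKM), Insig2 (5.21 against 15.8) and Nsdhl (6.26 against 10.0). The older symbol Sc4mol, a synonym of Msmo1, stays out of the counts and stood at 39.9 FPKM in wild-type control, 47.7 in knockout control, 95.6 in wild-type forskolin and 154 in knockout forskolin. The lower ones included Mvk, Star, Fasn (81.9 against 51.5) and Pmvk. Fasn was also lower in knockout controls (34.0 against 20.4 FPKM), as was Srebf1 (55.7 against 34.9). The forskolin response of Fasn was 1.24 log2 units in wild type and 1.29 in the knockout, and that of Acly was 0.40 and 0.24. Markers of other cell types also differed between the genotypes. Summed hepatocyte markers were 126 and 772 FPKM in wild-type and knockout control, and 165 and 3475 with forskolin. Summed acinar markers were 2468 and 208 FPKM in control, and 4799 and 1264 with forskolin. Summed islet hormone genes were lowest in knockout control. The part of these differences in the member values was not tested.

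JQ1 and A-485 were compared with forskolin alone in INS-1 cells, again with 1 library each. Forskolin took 5 of 24 members higher and 3 lower, beside 10.5% and 12.2% of genes. Adding JQ1 took 7 higher and 2 lower (16.9% and 18.2% of genes), and adding A-485 took 2 higher and 6 lower (14.2% and 18%). All 3 comparisons share the forskolin library. The check gene Nr4a1, a direct CREB target, stood at 14.4 FPKM in control, 371 with forskolin, 616 with JQ1 and forskolin, and 692 with A-485 and forskolin. The check gene Sik1 went the other way with both inhibitors, at 4.67, 244, 183 and 63.8 FPKM in the same order.

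Stard4 and Insig1, the members that rose in the replicated INS-1 table, had different values with the 2 inhibitors. Stard4 stood at 10.8 FPKM in control, 59.0 with forskolin, 30.9 with JQ1 added and 11.9 with A-485 added. The forskolin ratio was 2.35 log2 units, and relative to forskolin alone the level was -0.91 with JQ1 and -2.21 with A-485, which put it near the control. Insig1 stood at 27.0, 129, 189 and 57.2 FPKM in that order. It was higher with JQ1 by 0.54 log2 units, short of 1.5-fold, and lower with A-485 by 1.16. The sterol oxidase Msmo1 was also highest with forskolin alone, and with A-485 it was below control (49.4, 96.1, 78.9 and 40.7 FPKM), while Cyp51 stayed near its forskolin level in both (40.2, 89.8, 104 and 82.3 FPKM).

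Other members were higher with JQ1 than with forskolin alone. Idi1 stood at 21.3 FPKM in control, 35.3 with forskolin, 86.6 with JQ1 and 62.4 with A-485. Sqle stood at 48.7, 40.4, 99.8 and 40.4 FPKM, so JQ1 alone of the 2 inhibitors gave a higher level, by 1.28 log2 units. Hmgcs1 (18.9, 22.3, 42.4 and 31.5 FPKM) and Dhcr7 (38.5, 29.8, 66.5 and 47.0 FPKM) were also highest with JQ1. Aacs was 152 FPKM in control, 60.8 with forskolin, 154 with JQ1 and 65.5 with A-485, so that the JQ1 library was at the control level. In the fatty acid arm Acly stood at 1127, 1197, 1786 and 706 FPKM and Fasn at 106, 95.9, 158 and 102. Insig2 went the other way, at 17.2, 8.93, 2.19 and 10.0 FPKM, the JQ1 value resting on about 5.98 reads; it passed the FPKM minimum only through the forskolin library. Srebf2 was 76.3, 87.9, 66.7 and 51.2 FPKM.

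Arm medians relative to forskolin alone were 0.31 with JQ1 and -0.00085 with A-485 for 15 sterol enzymes, and 0.58 and -0.25 for 3 fatty acid enzymes, against -0.04 and -0.01 for all genes. The older symbols Sc5dl and Acat3, synonyms of Sc5d and Acat2 in the rat RefSeq table, were present in this table and stay out of the counts. Acat3 stood at 8.21, 10.8, 26.8 and 26.4 FPKM and Sc5dl at 14.5, 15.3, 22.6 and 21.0 FPKM in the order above.

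**Figure D3:**
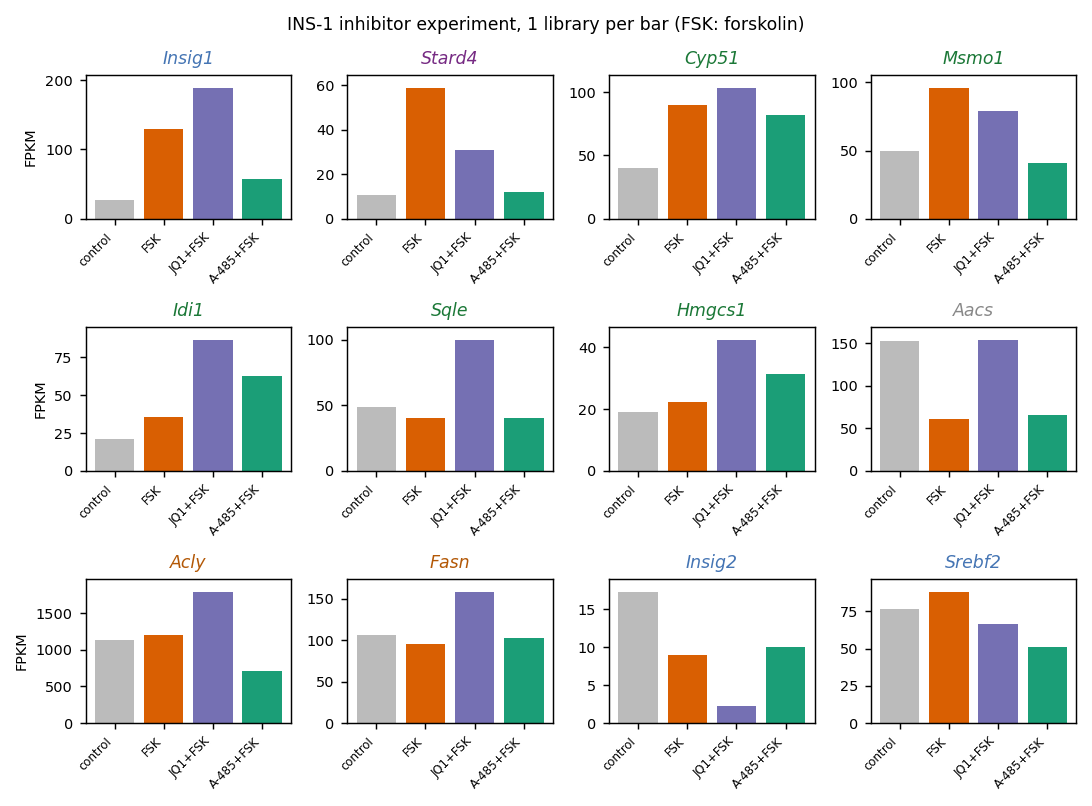
FPKM of 12 members in the 4 libraries of the INS-1 inhibitor experiment (y axis, linear and starting at 0, with its own scale in each panel; 1 library per bar, so no error bars). Insig1 is highest with JQ1 (189 FPKM) and Stard4 with forskolin alone (59.0 FPKM), Sqle, Idi1, Hmgcs1, Acly and Fasn are highest with JQ1, and Aacs is near 152 to 154 FPKM in control and with JQ1.

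In AR42J cells few members differed with forskolin, and the check genes also moved less than in INS-1 cells. Nr4a1 went from 1.15 to 3.76 FPKM with GFP and from 3.09 to 15.8 with NeuroD1, against 14.4 to 371 in INS-1 cells. Sik1, another check gene for forskolin, went from 11.4 to 21.5 and from 10.8 to 23.4 FPKM, against 4.67 to 244 there. Neurod1 stood at 3.44 and 5.67 FPKM in the GFP libraries and 3323 and 3834 FPKM in the NeuroD1 libraries, as labelled. With GFP, forskolin took 2 of 26 members higher (Lss, from 4.70 to 10.2 FPKM, and Hsd17b7, from 3.70 to 6.64) and 0 lower, beside 2.09% and 1.44% of genes. Both were under the FPKM minimum in control and passed only through the forskolin library, and of the 24 members above it in both libraries 0 were higher. With NeuroD1, 0 of 25 reached 1.5-fold in either direction, beside 2.8% and 2.35%. Insig1 was 34.5 FPKM in GFP control, 49.2 with forskolin, 18.7 in NeuroD1 control and 27.5 with forskolin, ratios of 0.50 and 0.53. Sterol arm medians were 0.14 and 0.22, and fatty acid arm medians -0.15 and -0.06, against -0.01 for all genes in both. Stard4, which moved most in INS-1 cells, stood at 29.9 and 31.0 FPKM with GFP and 19.1 and 19.98 with NeuroD1.

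With 1 library each, some members stood lower with NeuroD1 than with GFP, among them 3 of 15 sterol enzymes in control and 4 of 16 with forskolin. The count of lower members in control was 2 at a pseudocount of 5 and 1 at 2-fold. In control cells 1 of 25 members was higher and 5 lower, beside 12.2% and 12.6% of genes, and with forskolin 0 of 26 were higher and 6 lower, beside 10.1% and 11.3%. Idi1 stood at 28.1 and 12.9 FPKM in GFP and NeuroD1 control and at 34.2 and 18.2 with forskolin. Insig1 and Stard4 were also lower with NeuroD1 in both conditions, by 0.85 and 0.62 log2 units in control. Cyp51 (70.7 and 46.1 FPKM) and Mvd (21.2 and 13.4) were lower in control, and Dhcr7 (99.1 and 64.0), Lss (10.2 and 6.37) and Hsd17b7 (6.64 and 2.40) with forskolin. Hsd17b7 passed the FPKM minimum only through the GFP library, and 5 were lower without it. Aacs was the member higher with NeuroD1 in control, at 7.16 and 13.2 FPKM, and Hmgcs1 (17.1 and 22.4) and Fasn (47.8 and 68.1) were higher by less than 1.5-fold. Summed acinar markers were 41795 FPKM in GFP and 20312 FPKM in NeuroD1 control, and their part in these differences was not tested.

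**Figure D4:**
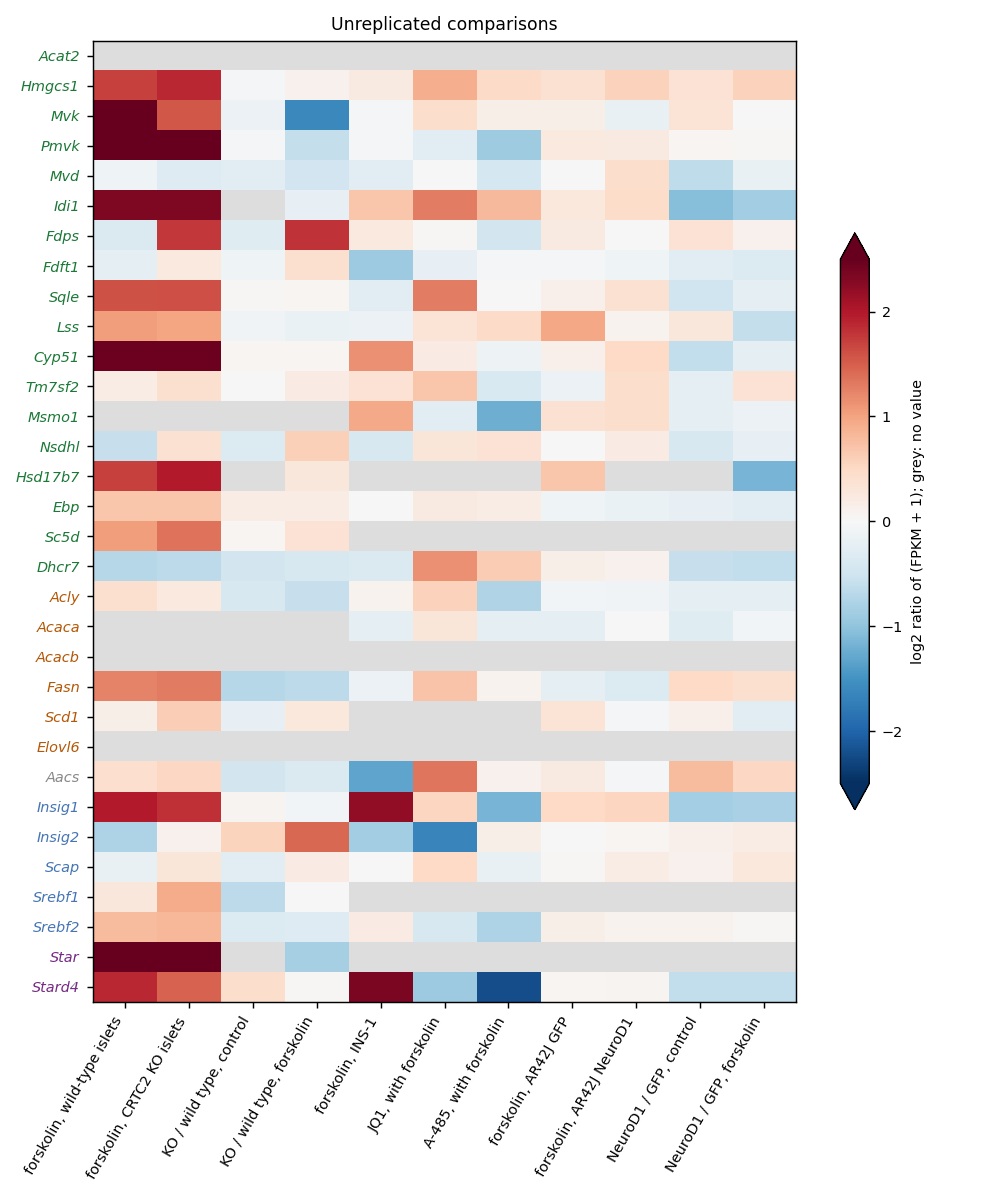
Log2 ratio of FPKM with a pseudocount of 1 for each member (rows, coloured by arm as in the islet plot) in the 11 unreplicated comparisons (columns), 1 library each; the colour scale is cut at 2.5, and grey marks members that were not measured or were below 5 FPKM. The 2 forskolin columns of islets are alike for Cyp51, Insig1, Sqle and Hmgcs1 and differ at Mvk and Fdps, the INS-1 columns have opposite colours for Stard4, and the AR42J forskolin columns are pale.

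Few genes of neighbouring pathways were called in the replicated tables. In islets, of 9 genes of cholesterol efflux, esterification and trafficking, 15 of desaturation, elongation and lipid assembly, 13 regulators and 8 of fatty acid oxidation, 1 rose by the limma test, beside the 1.72% of all genes called higher. This was Cpt1a, which carries fatty acids into mitochondria for oxidation, at 7.33 and 7.32 in control and 8.71 and 9.37 with forskolin (1.72 ± 0.27, limma adjusted p = 0.0258). The authors' deposited table adds Acsl4, an acyl-CoA synthetase, with a log2 fold change of 1.58. In INS-1 cells 1 of these genes fell, beside 1.24% of all genes called lower. It was Cpt2, which works after Cpt1a, at 7.62 and 7.28 in control and 6.57 and 6.96 with forskolin (-0.68 ± 0.17, limma adjusted p = 0.0454). Cpt1a differed by -0.14 ± 0.13 in INS-1 cells. In hepatocytes limma called 0 of the 45 genes with the columns as named, a fit that could not test forskolin in the header's order. It called 0 with the replicate 2 columns exchanged, and the authors' deposited table also calls 0. With replicate as a block in the exchanged order Cpt1a was called higher (0.57 log2 units), beside 395 of all genes higher and 227 lower. The authors' deposited table gives Cpt1a a log2 fold change of 0.77 in hepatocytes, with an adjusted p of 0.0572.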

How the data were processed

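RNA was extracted with Trizol and column clean-up and made into directional libraries, per the labels' protocols. Per the file headers, HOMER was used by the authors on mm10 or rn6 to count exon reads of RefSeq genes and to test the replicated tables (3); the deposited columns hold log2 expression that was regularised, which shrinks low genes, with the authors' log2 fold change and p-values. TopHat2 2.0.9, STAR and DESeq2 are named in the submitters' processing notes without saying which made which table. The 3 unreplicated tables hold values that behave as FPKM, as deposited by the authors; the unit was read from the values, since low values multiplied by length cluster at whole multiples of a library-specific unit, which gave the depth estimates.

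From these, limma 3.58.1 in R 4.3.3 with a variance trend was run on the log2 columns over all genes with a group mean of at least 1, at Benjamini-Hochberg adjusted p under 0.05 and with no replicate block; it was tested on simulated data. Count tests could not be used. FPKM ratios used a pseudocount of 1, which understates changes of low genes, a minimum of 5 FPKM in the higher library and a call at 1.5-fold. Groups came from the sample titles. Members, arms and other gene lists were chosen with earlier results of these data known. Named genes were members called in a replicated comparison, 8 genes named throughout (Sqle, Hmgcs1, Fasn, Acly, Srebf1, Srebf2, Insig1 and Star) and, in unreplicated comparisons, the 3 largest ratios each way among members with at least 10 FPKM. Alternatives were other normalisations, filters, pseudocounts and thresholds, a replicate block, each library left out, and the authors' own statistics. Tables were normalised separately and were not tested against each other.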

Additional observations from a re-analysis of the deposited data

Results flagged for a closer look

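The Sqle values with forskolin lay on opposite sides of control in islets and INS-1 cells, with no overlap between treated and control libraries in either. In islets the log2 difference was 1.17 and both treated libraries lay above both controls, while in INS-1 cells it was -0.15 and both lay below. The difference between the cell types was not tested, because the tables were normalised separately. Neither Sqle difference passed the limma test on its own (adjusted p 0.0555 and 0.590). Lack of overlap was common with 2 libraries per group. Of all genes tested, 23.0% lay above both controls and 23.2% below in islets, and 23.8% and 24.6% in INS-1 cells. In hepatocytes with the columns as named the shares were 7.9% and 8.1%. With the hepatocyte columns as named, no other tested member had treated libraries above both controls in one of the 3 replicated tables and below both in another. With the replicate 2 columns exchanged, Hmgcs1, Mvk, Msmo1 and Insig1 were below both controls in hepatocytes (-0.12, -0.072, -0.13 and -0.16) and above both in islets. In that reading Fdps was below both in hepatocytes (-0.10) and above both in INS-1 cells, and Insig2 was above both in hepatocytes (0.10) and below both in INS-1 cells. These differences were not tested either.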

How the results depend on the processing

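Counts of members called higher in islets (7) ran from 2 to 15 when 1 library was left out, and counts called lower (0) from 0 to 5. The count of members higher was 12 with a replicate block (667 of all genes higher and 120 lower) and with the block crossed (542 and 163). It was also 12 in the authors' deposited table (483 and 63) and with a group mean of at least 5, and 6 with no filter or quantile normalisation. In INS-1 cells the replicate block gave 4 members higher (adding Msmo1 and Cyp51) and 1 lower (Aacs). This stood beside 774 of all genes higher and 691 lower, against 318 and 128 without the block. In hepatocytes the exchanged columns with a replicate block gave 2 members higher (Stard4 and Elovl6), beside 395 of all genes higher and 227 lower. The labels do not state a pairing by replicate number, and same-numbered libraries deviated together with correlations of -0.055 in islets, 0.44 in INS-1 cells and 0.40 in hepatocytes. The crossed block was added after seeing the data and gave 2 higher in INS-1 cells and 0 in hepatocytes, there with the columns as named. In the header's order its hepatocyte blocks are the control and the treated libraries, so that 0 could not test forskolin.

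Among genes not called with all libraries, directions turned in islets under quantile normalisation for Srebf2 (-0.022), Acly (-0.17) and Fasn (-0.037). With 1 library left out, directions turned in islets for Srebf1 (-0.97 to 0.17), Srebf2 (-0.23 to 0.72), Acly (-0.20 to 0.39) and Fasn (-0.31 to 0.98). In INS-1 cells they turned under quantile normalisation for Srebf1 (-0.080), Acly (-0.26) and Fasn (-0.22), and under median centring for Hsd17b7 (0.0015). With 1 library left out the ranges there were Hmgcs1 -0.023 to 0.13, Hsd17b7 -0.075 to 0.066, Srebf1 -0.25 to 0.30, Acly -0.029 to 0.19, Fasn -0.029 to 0.13. In hepatocytes, exchanging the columns, with or without the block, turned Sqle (0.00077), Fasn (0.012), Srebf1 (-0.14), Srebf2 (-0.028) and Star (0.075), and the authors' deposited table gives Fasn 0.027, Srebf1 -0.21, Srebf2 -0.045 and Star 0.15. The hepatocyte fits with 1 library left out used the columns as named. In the header's order those groups mix control and treated libraries, so the ranges do not describe the forskolin effect. They were Sqle -0.11 to 0.082, Hmgcs1 -0.12 to 0.0075, Fasn -0.18 to 0.051, Srebf1 -0.057 to 0.20, Srebf2 -0.061 to 0.14, Insig1 -0.18 to 0.032, Stard4 -0.082 to 0.23, Elovl6 -0.19 to 0.73. The cause was not tested.

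In the unreplicated comparisons, main counts are followed by those that moved. Wild-type islets, lower with forskolin: 2, or 0 at a pseudocount of 5, at 20 FPKM and at 2-fold; in knockout islets 1, or 0 under the same 3. Knockout against wild type, control: higher 0, or 1 at a pseudocount of 0.1 and with median centring, and lower 2, or 0 at 2-fold. With forskolin: higher 3, or 1 at 20 FPKM, and lower 4, or 2 with centring and 1 at 2-fold. INS-1 forskolin: higher 5, or 3 at 2-fold, and lower 3, or 1 at 20 FPKM and at 2-fold. JQ1: higher 7, or 4 at 2-fold, and lower 2, or 1 at 20 FPKM and at 2-fold. A-485: higher 2, or 1 at a pseudocount of 5 and 0 at 2-fold, and lower 6, or 3 at 2-fold. AR42J with GFP: higher 2, or 1 at a pseudocount of 5 and 0 at 20 FPKM and at 2-fold, and with NeuroD1 0, or 1 at a pseudocount of 0.1. NeuroD1 against GFP, control: higher 1, or 0 at a pseudocount of 5, at 20 FPKM and at 2-fold, and lower 5, or 2 at a pseudocount of 5 and 1 at 2-fold. With forskolin: higher 0, or 1 at a pseudocount of 0.1, and lower 6, or 1 at 2-fold. Of 132 such counts over all alternatives, 100 stayed within 1.5 times the main count, as did 64 of 76 in the replicated tables.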
